A study of Mus musculus with 2 samples.

Results

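Gene deserts are stretches of chromosome that hold no protein-coding gene. They were defined here as runs of at least 40 consecutive 50 kb bins (2 Mb) on the autosomes of mouse, starting beyond 3.5 Mb, in which no bin overlapped a protein-coding gene of the mm10 build. The rule found 70 deserts, made of 4044 of 49264 autosome bins (8.21%) and covering 202.2 Mb. They lay on 18 of the 19 autosomes, with 8 on chromosome 1, 7 each on chromosomes 3 and 12, and none on chromosome 19. Each desert is named below by its nearest protein-coding gene on either side, so that Pcdh20-Pcdh9 is the desert between those genes.

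The contacts came from Foxa2 HiChIP of livers of wildtype mice killed 4 h after a single oral gavage. One group was given GW4064, a synthetic compound that activates FXR, the nuclear receptor for bile acids, in the vehicle, and the other was given the vehicle alone, a mixture of propylene glycol and Tween 80. Each group held 1 library, and the sources used here do not give the strain, sex or age of the mice or say whether animals were pooled. With 1 library per group there is no test of the treatment: every ratio below compares those libraries, an effect of the treatment cannot be told apart from one of the library, and the 95% intervals cover counting error only.

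HiChIP joins proximity ligation of crosslinked chromatin with immunoprecipitation, so that each contact is a pair of DNA ends that lay close together in the nucleus and was pulled down with antiserum to Foxa2, the forkhead pioneer factor of liver. In mammalian nuclei, large gene-poor stretches mostly belong to the inactive B compartment, replicate late, lie near the nuclear lamina or the nucleoli, and contact other inactive stretches more than active ones. Many gene deserts border genes of development and of the nervous system, and some hold distant enhancers of these genes. Foxa2 binds enhancers and promoters of liver genes.

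The deserts were 2.0 to 4.5 Mb long, with a median of 2.75 Mb. One desert had exactly 40 bins, and 14 runs of 36 to 39 bins just missed the rule. The longest was Pcdh20-Pcdh9 on chromosome 14 (chr14:88500001-93000000, mm10; 4.5 Mb), between the genes of a pair of protocadherins, which are adhesion proteins of neurons. It was followed by Celf4-Pik3c3 (4.45 Mb; an RNA-binding protein of neurons and the class III phosphatidylinositol 3-kinase), Olfm4-Pcdh17 (4.35 Mb; a secreted glycoprotein of the gut and another protocadherin) and Cntnap5b-Cdh20 (4.25 Mb; a neurexin-like protein and a cadherin). Slc39a10-Tmeff2, beside a zinc transporter gene, and Tenm3-Aga, beside the genes of a teneurin and of a lysosomal hydrolase, were both 3.95 Mb long. The deserts were free of protein-coding genes but not of transcription units: the RefSeq gene table places 295 long noncoding RNA genes, 17 microRNA genes and 532 pseudogenes inside them, and no desert was without any annotated gene. The rule also crossed antigen receptor gene segments, which the table does not class as protein-coding genes: Adam6a-Zfp386 on chromosome 12 holds 119 segments of the immunoglobulin heavy chain locus.

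The best known transcripts inside a desert are the microRNAs of the miR-17-92 cluster, which promote cell proliferation and restrain apoptosis. They lie in the last bin of Slitrk5-Gpc5, between a synaptic adhesion gene and a glypican gene, within chr14:115043671-115044506 on the plus strand. The mature sequences (RefSeq, GRCm38.p6) are shown because members of the cluster share seeds; the seed, bases 2 to 8, is in capitals.
mmu-miR-17-5p: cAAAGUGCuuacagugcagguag
mmu-miR-20a-5p: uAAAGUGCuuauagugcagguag
mmu-miR-18a-5p: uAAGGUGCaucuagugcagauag
mmu-miR-19a-3p: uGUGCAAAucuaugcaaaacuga
mmu-miR-19b-3p: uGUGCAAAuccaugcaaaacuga
mmu-miR-92a-3p: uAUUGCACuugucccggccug
miR-17-5p and miR-20a-5p share the seed AAAGUGC, and miR-19a-3p and miR-19b-3p share GUGCAAA. The bin of the cluster held 1238 contacts in the GW4064 library and 949 in the vehicle library, against medians of 1305 and 905 over the bins of its desert.

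Promoters inside deserts were poorer in G and C than promoters elsewhere. The 245 RefSeq windows of 300 bases at the starts of long noncoding RNA genes inside deserts had a median GC content of 42% and 2 CG pairs, against 48.7% and 4 CG pairs for 11066 such windows elsewhere on the autosomes. Windows of the protein-coding genes that flank deserts had a median of 55.7% (139 windows), against 57% for other protein-coding genes (19946 windows). The letters TGTTTAC, a core of the motif bound by Foxa proteins, were sought on both strands. They occurred in 12 of 246 desert promoters (4.88%), in 4.91% of other long noncoding RNA promoters and in 3.71% of all 31396 promoters of the autosomes. A match is only a run of letters and was not linked to binding. A pair of desert promoters with 2 matches each and, for contrast, the promoter of Pcdh9 beside the longest desert are shown, with the matches in capitals (GRCm38.p6, 5′ to 3′ on the gene's strand). Gm31946 lies in Nr2f1-Arrdc3 (chr13:78426685-78426984, plus strand), Gm33990 in 1700015G11Rik-Luzp2 (chr7:53660742-53661041, minus strand), and the window of Pcdh9 at chr14:93890630-93890929 on the minus strand.
Gm31946: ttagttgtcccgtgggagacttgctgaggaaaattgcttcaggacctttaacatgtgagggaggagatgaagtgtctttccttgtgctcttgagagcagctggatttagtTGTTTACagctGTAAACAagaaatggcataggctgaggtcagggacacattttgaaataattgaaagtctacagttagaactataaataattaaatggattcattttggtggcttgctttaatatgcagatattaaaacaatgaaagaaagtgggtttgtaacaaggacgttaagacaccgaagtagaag
Gm33990: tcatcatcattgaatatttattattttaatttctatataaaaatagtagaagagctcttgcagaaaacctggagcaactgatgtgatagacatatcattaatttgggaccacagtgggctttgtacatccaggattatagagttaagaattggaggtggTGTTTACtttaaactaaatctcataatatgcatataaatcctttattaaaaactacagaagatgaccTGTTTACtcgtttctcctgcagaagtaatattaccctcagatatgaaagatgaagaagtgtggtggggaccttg
Pcdh9: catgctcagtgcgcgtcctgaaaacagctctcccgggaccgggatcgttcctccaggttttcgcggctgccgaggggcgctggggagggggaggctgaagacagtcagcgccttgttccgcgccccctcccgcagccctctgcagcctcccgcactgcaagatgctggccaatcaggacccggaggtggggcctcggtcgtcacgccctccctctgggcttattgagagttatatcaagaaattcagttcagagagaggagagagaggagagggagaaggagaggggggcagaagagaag
GC content was 38.3% with 3 CG pairs in the Gm31946 window, 33.3% with 1 in the Gm33990 window and 62.7% with 18 in the Pcdh9 window. The bin of Gm31946 held 1501 contacts in the GW4064 library and 1092 in the vehicle library, and that of Gm33990 held 719 and 678.

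The GW4064 library held 29003442 contacts and the vehicle library 22686004. Of these, 28848289 and 22564681 joined bins of chromosomes 1 to 19 and X, which were used. Contacts that touched a desert numbered 4150319 and 2982565. Of the 4044 desert bins, 7 held under 200 contacts over both libraries, 6 of them in Lrrc4c-Iftap. Ratios are given as log2 of GW4064 over vehicle after scaling each contact class to equal totals, so that 0 is the average of the class over these chromosomes.

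Desert bins held more contacts than the other autosome bins in both libraries, and varied less among themselves. The median desert bin held 1275 contacts in the GW4064 library, against 989 in bins elsewhere on the autosomes. In the vehicle library the medians were 896 in desert bins and 794 elsewhere. Bins in gene-rich surroundings, with at least 13 protein-coding genes in 21 bins, had medians of 772 in the GW4064 library and 712 in the vehicle library. Over desert bins the coefficient of variation of coverage was 0.146 in the GW4064 library and 0.143 in the vehicle library, against 0.290 and 0.217 over the rest of the autosomes. Noncoding genes marked no large difference in level. Desert bins with a long noncoding RNA or microRNA gene had medians of 1245 (GW4064) and 885 (vehicle) contacts, and those without had medians of 1282 and 897. Strong same-bin signal, at least 2 times the autosome median, was found in 22 desert bins (0.544%) of the GW4064 library and in 3 (0.0742%) of the vehicle library, against 0.176% and 0.0661% of the other autosome bins. The 2 desert bins with most same-bin contacts in the GW4064 library, in Ankrd7-Kcnd2 (chr6:19000001-19050000; 371 in GW4064, 239 in vehicle) and in Olfm4-Pcdh17 (chr14:83300001-83350000; 371 and 233), overlap no annotated gene; they were picked by their values.

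The partners of desert contacts lay more often on the same chromosome than those of other bins. Here a contact was counted at each bin it touches, and a same-bin contact at its single bin only. By these counts, contacts with other chromosomes made up 16.7% at desert bins in the GW4064 library and 20.3% in the vehicle library. At other autosome bins they made up 21.7% and 26.0%. Contacts 1 to 2 Mb apart made up 5.80% (GW4064) and 5.52% (vehicle) at desert bins, against 4.21% and 3.98%. Those over 2 Mb apart made up 33.7% and 34.9%, against 31.2% and 31.6%. Exact Clopper-Pearson intervals of these shares are at most 0.1 percentage points wide. They treat the counts of a contact at different desert bins as separate and so are too narrow.

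In the GW4064 library, deserts held a larger part of each contact class than in the vehicle library, though for contacts between chromosomes the direction turned when ratios were scaled to all contacts. Local contacts, those that join different bins at most 1 Mb apart, summed over all desert bins to 1457095 in the GW4064 library and 913872 in the vehicle library, a log2 ratio of 0.16 (interval 0.16 to 0.17). In these sums a contact between desert bins is counted at both of its ends, so this interval is too narrow. The remaining autosome bins had a ratio of -0.02 and gene-rich bins one of -0.20. A desert was called higher or lower when the ratio passed 1.1-fold and its exact conditional binomial interval excluded 1. By that rule 49 of 70 deserts were higher for local contacts and 1 was lower, while 18.1% of the 1188 windows of 40 bins that tile the autosomes were higher and 23.8% lower. Of the 1027 windows with no desert bin, 12.2% were higher and 27.4% lower. The median log2 ratio was 0.16 over the deserts, from -0.33 to 0.52, and -0.02 over the windows with no desert bin. The 25% to 75% range was 0.13 to 0.20 over deserts and -0.15 to 0.08 over those windows, so that the middle of the deserts spanned a narrower range. The runs of 36 to 39 bins had a median of 0.18, the same as the 10 deserts of 40 to 43 bins.

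The other classes gave the same order. For same-bin contacts 57 deserts were higher and 1 lower (median log2 0.18), against 17.8% and 23.6% of all windows and 11.4% and 27% of those with no desert bin (median -0.03). For contacts 1 to 2 Mb apart 42 were higher and 1 lower (median 0.15), against 17.6% and 29% of all windows and 12.6% and 33.1% of those with no desert bin. For contacts over 2 Mb 35 were higher and 1 lower (median 0.14), against 13.1% and 27.4% of all windows and 9.44% and 31.4% of those with no desert bin. For total coverage 22 were higher and 1 lower (median 0.13), against 6.9% and 31.1% of all windows and 3.21% and 35.7% of those with no desert bin. For contacts between chromosomes 37 were higher and 0 lower (median 0.14), against 15.7% and 18.4% of all windows and 11% and 21.1% of those with no desert bin. The share of contacts between chromosomes was itself lower in the GW4064 library (18.3% against 22.3% in the vehicle library). Scaled to all contacts of the library in place of the class, every ratio between chromosomes shifted by -0.28, the median over deserts became -0.14, and 1 desert was higher and 36 lower. The same scaling raises local log2 ratios by 0.15 and same-bin ones by 0.11. The distance of the desert median above that of windows with no desert bin does not depend on the scaling, and it was 0.18 for local contacts, 0.21 for same-bin contacts, 0.18 for contacts over 2 Mb and 0.16 for contacts between chromosomes.

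**Figure D1:**
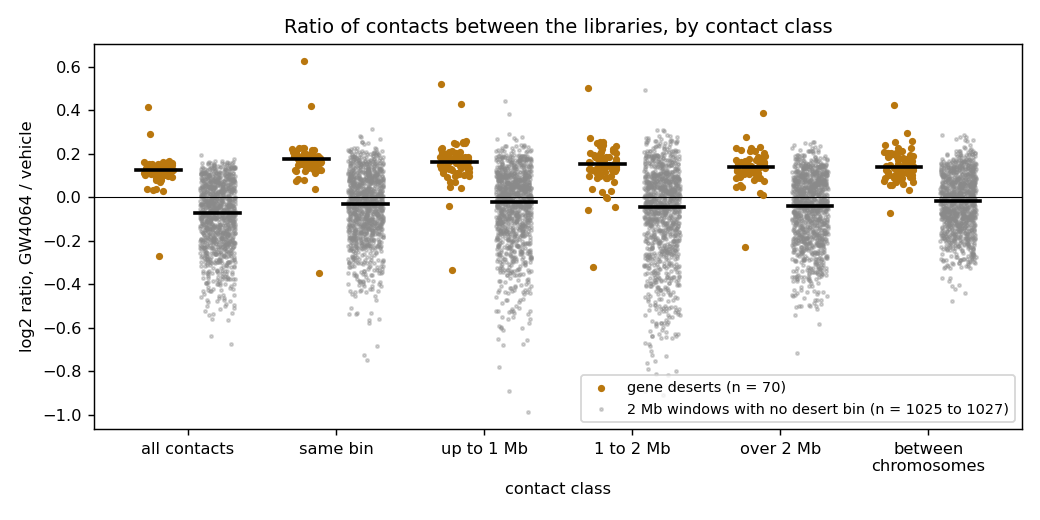
Log2 ratio of GW4064 over vehicle contacts (vertical axis) by contact class (horizontal axis), scaled to equal class totals, with 1 point per gene desert (brown) or per 2 Mb window with no desert bin (grey) and the median as a bar. Desert medians lie between 0.13 and 0.18 and window medians between -0.07 and -0.02; a few deserts stand away from the others at the top and bottom of each class.

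The same excess was seen in single bins, and in gene-free bins that belong to no desert. Of 4035 desert bins with at least 200 local contacts, 555 (13.8%) were at least 25% higher in the GW4064 library with an interval excluding 1 and 40 (0.991%) were at least 25% higher in the vehicle library, against 5.24% and 12.5% of all autosome bins and 4.43% and 13.6% of those outside deserts. The 1140 bins outside deserts that had no protein-coding gene in the 21 bins around them had a median log2 ratio of 0.15. The median was 0.17 for the 2637 desert bins with no such gene within the same reach, and 0.15 for the 1398 desert bins nearer to a gene. Median coverage of the gene-free bins outside deserts was 1232 in the GW4064 library and 879 in the vehicle library. The ratios of desert bins were thus close to those of shorter gene-free stretches, and the difference between them was not tested.

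Change across the edge of a desert was gradual. In the 1 Mb on each side of a desert (2536 bins) the median log2 ratio of local contacts was 0.07, against 0.17 over the bins of the desert, and 63 of 70 deserts lay above their own flanks. The same held for 63 deserts with same-bin contacts, 66 with coverage, 61 with contacts over 2 Mb and 60 with contacts between chromosomes. Summed over all borders, the local log2 ratio was 0.05 at 875 kb outside (interval 0.03 to 0.07) and 0.09 at 125 kb outside. It was 0.12 in the outermost desert bin and 0.16 at 175 kb inside. A local contact that crosses a border is counted on both sides, so the measure itself smooths this profile. Same-bin contacts, which different bins do not share, had log2 ratios of 0.02, 0.10, 0.10 and 0.16 at the same positions. Mean coverage per bin was 1272 in the GW4064 library and 890 in the vehicle library at 925 kb inside, against 1121 and 853 at 875 kb outside. The median number of protein-coding genes in 21 bins was 4 at 875 kb outside and 0 at 925 kb inside.

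**Figure D2:**
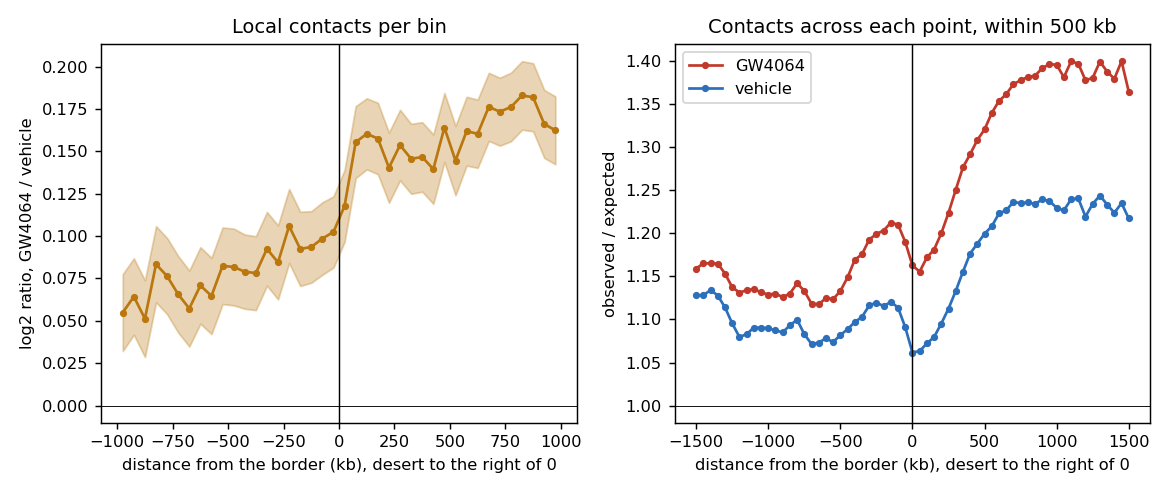
Left: log2 ratio of GW4064 over vehicle local contacts per bin (vertical axis) against distance from the desert border in kb (horizontal axis, desert to the right of 0), summed over all borders, with 95% counting intervals as the band. Right: observed over expected contacts (vertical axis) across each point within 500 kb, GW4064 in red and vehicle in blue, against the same distance; both libraries have a local dip at the border (1.16 in GW4064, 1.06 in vehicle) and are higher well inside, and GW4064 is lower still farther outside (1.12 at 650 kb).

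The highest ratio was that of the heavy chain locus, Adam6a-Zfp386 (chr12:113550001-116000000), between a gene of the ADAM family and a zinc finger gene. It held 8470 local contacts in the GW4064 library and 4143 in the vehicle library, a log2 ratio of 0.52 (0.47 to 0.58), and it was also the highest for same-bin contacts (0.62; 9353 and 4385), contacts over 2 Mb (0.39) and contacts between chromosomes (0.43).

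In this desert the difference sat in the vehicle library's profile along the bins. The GW4064 bins of Adam6a-Zfp386 had a median of 1194 contacts, close to the 1275 of all desert bins, whereas the vehicle bins had a median of 680 against 896. In the GW4064 library 2 of its 49 bins, and in the vehicle library 22, were under 75% of the library's median for desert bins. The correlation of bin coverage between the libraries was 0.43 in Adam6a-Zfp386, the lowest of all deserts, against a median of 0.91 over the 70 deserts; the bins of a desert share their libraries and sequence, so these values only describe. Of the 20 desert bins whose scaled coverage was at least 1.5-fold higher in GW4064, 15 lay in Adam6a-Zfp386. Its most uneven bin held 1421 contacts in the GW4064 library and 534 in the vehicle library (chr12:114100001-114150000; log2 1.07).

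One desert went the other way. 1700015G11Rik-Luzp2 (chr7:52050001-54800000), beside the gene of a leucine zipper protein, held 5619 local contacts in the GW4064 library and 4974 in the vehicle library, a log2 ratio of -0.33 (-0.39 to -0.28). It was the lowest desert for same-bin contacts (-0.35), contacts over 2 Mb (-0.23) and contacts between chromosomes (-0.07), and the only one called lower in any class. Its mean coverage per bin was 765 in the GW4064 library, the lowest of the 70 deserts, and 716 in the vehicle library, the lowest but for Adam6a-Zfp386 (695). Of its 55 bins, 51 in the GW4064 library and 20 in the vehicle library were under 75% of the median for desert bins. The 1 Mb to its left had means of 802 and 731 contacts per bin and the 1 Mb to its right 868 and 682. Since the strain of the mice is not given, a difference in genome between the mice of the libraries cannot be told apart from one of treatment in this desert or in the heavy chain locus.

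The other named deserts at the ends of the local ranking differed by less. Cdh6-Cdh9, between the genes of a pair of cadherins, held 13484 local contacts in GW4064 and 7922 in vehicle (0.26), Cobl-Pom121l12, beside the gene of the actin nucleator cordon-bleu, 8536 and 5031 (0.25), and Alcam-Zpld1, beside the gene of an adhesion molecule of activated leukocytes, 11824 and 6974 (0.25). These intervals reached down to 0.20. At the low end Serpinb8-Cdh7 (a serpin and a cadherin) held 9444 and 6826 (-0.04; -0.09 to 0.00), the only desert besides 1700015G11Rik-Luzp2 with more local contacts in vehicle after scaling. Dsel-Cntnap5a held 12935 and 8807 (0.05), Gm15501-Tenm4, beside a teneurin gene, 9211 and 6257 (0.05), and Adgrl2-Adgrl4, between the genes of adhesion G protein-coupled receptors, 11168 and 7479 (0.07). The low ratios were not the same in every class: Dsel-Cntnap5a and Gm15501-Tenm4 had ratios of 0.14 and 0.20 between chromosomes. Bcl11a-Fancl had the second lowest same-bin ratio (0.04; 7788 and 5477), and Cntnap5b-Cdh20 the second lowest ratio between chromosomes (0.03; 12975 and 12077). Length did not go with the local ratio over the 70 deserts (Pearson r -0.04, Spearman rho 0.00; a description over deserts of the same libraries).

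**Figure D3:**
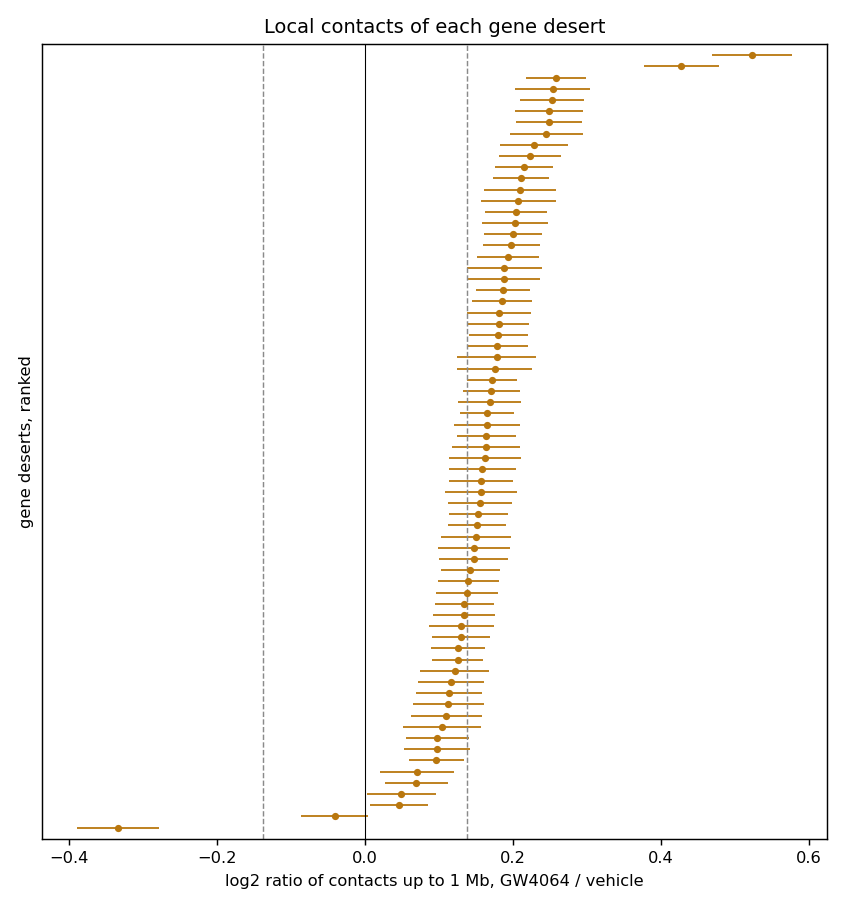
Log2 ratio of GW4064 over vehicle local contacts (horizontal axis, up to 1 Mb, scaled to equal totals) for each of the 70 deserts (vertical axis, ranked from the lowest to the highest), with 95% counting intervals; dashed lines mark 1.1-fold. The points of 68 deserts lie above 0, with Adam6a-Zfp386 (0.52) at the top and 1700015G11Rik-Luzp2 (-0.33) apart at the bottom.

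Chromosomes differed in the typical ratio of their deserts. The median local log2 ratio was 0.23 over the 7 deserts of chromosome 12, and 0.21 over the 3 each of chromosomes 15, 17 and 18, against -0.14 over the 2 of chromosome 7, 0.10 over the 8 of chromosome 1 and 0.11 for the 1 of chromosome 9. The value of chromosome 7 lies between those of its 2 deserts, of which only 1700015G11Rik-Luzp2 (-0.33) was below 0. On chromosome 16 contacts over 2 Mb had the highest median of any chromosome (0.22 over 5 deserts).

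Of the gene lists examined, genes of cell adhesion and of the synapse were the most frequent neighbours of deserts. Of 90 autosomal genes on a list of such genes, 34 (37.8%) flank a desert, whereas 133 of all 20665 autosomal protein-coding genes (0.644%) do. The list was chosen with earlier results of these data known, so these shares only describe it and cannot measure an enrichment. The 34 genes include 7 cadherin and 6 protocadherin genes, whose products hold cells together, the teneurins Tenm2, Tenm3 and Tenm4, the ephrin receptors Epha6 and Epha7, and Slitrk1 and Slitrk5. Of the 36 deserts they border, 28 were higher and 0 lower, against 49 and 1 of all 70 deserts. The median local log2 ratio of the 36 was 0.16, the same as over all deserts. The longest of these held 18617 local contacts in GW4064 and 11613 in vehicle (Pcdh20-Pcdh9; 0.17), 15819 and 9914 (Olfm4-Pcdh17; 0.16), 17040 and 10977 (Cntnap5b-Cdh20; 0.13) and 14592 and 9108 (Tenm3-Aga; 0.17).

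The other lists gave fewer neighbours. The share flanking a desert was 3.74% for developmental transcription factors and 5.48% for ion channels and neurotransmitter receptors. It was 1% for secreted and metabolic genes of liver, against 0.644% of all autosomal protein-coding genes. These lists too were chosen with earlier results of these data known, so the shares only describe them. Of 107 developmental transcription factors, 4 flank a desert, among them Nr2f1, an orphan nuclear receptor (Nr2f1-Arrdc3; 0.17), Gata3, a factor of T lymphocytes (Celf2-Gata3; 0.11), and Bcl11a, a repressor of fetal globin genes (Bcl11a-Fancl; 0.07), with the local log2 ratio of the desert in brackets. Of these, Nr2f1-Arrdc3 was called higher. Of 73 ion channels and neurotransmitter receptors, 4 flank a desert. The glutamate receptor gene Grik2 borders one that was called higher (Hace1-Grik2; 0.20), while the deserts beside the potassium channel genes Kcnd2 (0.12), Kcnv1 (0.11) and Kcnt2 (0.10) were not called. Of 100 secreted and metabolic genes of liver, 1 flanks a desert, namely Apob, which encodes the protein of very low density lipoprotein. Klhl29-Apob held 7415 local contacts in GW4064 and 4605 in vehicle (0.18; 0.13 to 0.23) and was called higher, with a coverage per bin of 1114 and 806. Slc10a2, the gene of the intestinal bile acid transporter, flanks Slc10a2-Efnb2, where local contacts numbered 13233 and 8299 (0.16); this desert was chosen with its values in view.

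Deserts lay almost wholly in the gene-poor compartment in both libraries. Compartments were the sign of the first eigenvector of the correlation of contact profiles at 250 kb, oriented by gene density. A gene-free stretch is thus favoured to fall on the gene-poor side. How closely the eigenvector followed gene density differed by chromosome. Pearson r ranged from 0.27 on chromosome 13 in GW4064 to 0.76 on chromosome 15 in vehicle, so the name gene-poor is looser on some chromosomes. Of 4039 desert bins, 98.8% in the GW4064 library and 99.1% in the vehicle library were gene-poor by that sign, against 51.3% and 52.1% of all autosome bins. All 70 deserts were mostly gene-poor in both libraries, and 58 in GW4064 and 59 in vehicle were so wholly. The exceptions were led by Adgrl2-Adgrl4, with 68.8% of its bins in GW4064 and 79.2% in vehicle, and by Nmbr-Cited2, with 75.9% and 93.1%; Nmbr encodes the neuromedin B receptor and Cited2 a transcriptional coregulator. Klhl29-Apob reached 92.2% in both.

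Deserts of one chromosome contacted each other more often than the average for their distance. Between the 132 pairs of deserts on 17 chromosomes, 145988 contacts were observed in the GW4064 library, 2.14 times the number expected from the mean of bin pairs of the same chromosome at the same distance, and 99458 in the vehicle library, 1.87 times. The value was above 1 for 129 pairs in GW4064 and 127 in vehicle, and higher in GW4064 than in vehicle for 122. The excess was seen at every range of distance: the median over pairs was 2.07 (GW4064) and 1.79 (vehicle) for the 28 pairs under 10 Mb apart, 2.25 and 2.01 for the 64 pairs 10 to 50 Mb apart, and 2.00 and 1.6 for the 40 pairs over 50 Mb apart, where it was lowest in both libraries. With gene-rich bins over 2 Mb away, in contrast, deserts made 0.595 times the expected contacts in GW4064 and 0.583 times in vehicle.

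Part of this excess went with the coverage of desert bins. When the expectation was multiplied by the contacts of both bins with other bins of the chromosome, contacts between deserts of one chromosome were 1.24 times the expected in GW4064 and 1.29 times in vehicle, so the order of the libraries turned round. Above 1 were then 93 pairs in GW4064 and 95 in vehicle, and 44 pairs were higher in GW4064. Desert contacts with gene-rich bins stayed low, at 0.575 (GW4064) and 0.559 (vehicle), while contacts among gene-rich bins were 1.38 and 1.30 with coverage in the expectation, against 0.810 and 0.955 without. Between chromosomes, where the expectation always held the coverage of both bins, deserts contacted deserts at 1.71 times (GW4064) and 1.68 times (vehicle) the expected, and gene-rich bins at 0.592 and 0.630 times.

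**Figure D4:**
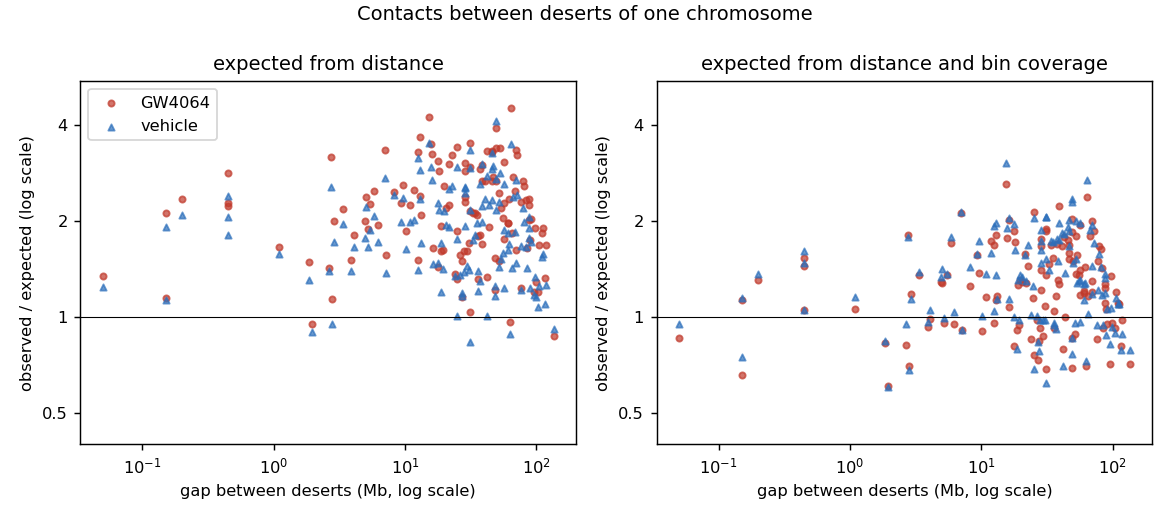
Observed over expected contacts (vertical axis, log scale) for each pair of deserts of one chromosome against the gap between them in Mb (horizontal axis, log scale), GW4064 as red circles and vehicle as blue triangles, expected from distance (left) and from distance and bin coverage (right). On the left 129 (GW4064) and 127 (vehicle) of 132 pairs lie above 1; on the right 93 and 95 do.

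Among the pairs that contacted each other most were some on chromosomes 4 and 12. Manea-Epha7 and Ptprd-Tyrp1 on chromosome 4, 49.45 Mb apart, had 839 contacts in GW4064 and 694 in vehicle, 3.92 and 4.12 times the expected. Ptprd encodes a receptor tyrosine phosphatase of the synapse and Tyrp1 an enzyme of melanin synthesis. Flrt2-Galc contacted the heavy chain locus at 4.25 times (GW4064, 1569 contacts) and 3.52 times (vehicle, 1001). With coverage in the expectation these pairs were at 1.86 (GW4064) and 2.35 (vehicle), and 2.62 and 3.04. Also high were Lrfn5-Fscb with Flrt2-Galc (3.53 and 3.35) and Epha7-Map3k7 with Ptprd-Tyrp1 (3.33 and 3.28). The lowest pairs were mostly on chromosome 3: Snx16-Ralyl with Adgrl2-Adgrl4 (0.872 in GW4064, 0.916 in vehicle), with Fstl5-Rapgef2 (0.963 and 0.887), and D3Ertd751e-Pcdh10 with Fstl5-Rapgef2 (1.04 and 0.836). Serpinb8-Cdh7 and Dsel-Cntnap5a on chromosome 1, only 1.95 Mb apart, were at 0.949 and 0.9, and Trim52-Slitrk1 with Slitrk5-Gpc5 on chromosome 14 at 1.14 and 0.952.

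The libraries differed most for 3 pairs that were higher in GW4064. Snx16-Ralyl with Prmt6-Amy2b on chromosome 3 had 236 contacts in GW4064 and 123 in vehicle (log2 0.62; 0.30 to 0.95), Klhl29-Apob with Lrfn5-Fscb on chromosome 12 had 448 and 242 (0.57; 0.34 to 0.80), and Snx16-Ralyl with Otol1-Sis had 440 and 240 (0.55; 0.32 to 0.79). The lowest ratio was that of the only pair of chromosome 7, 1700015G11Rik-Luzp2 with Gm15501-Tenm4, with 444 and 465 contacts (-0.39; -0.58 to -0.20), followed by Lingo2-1700009N14Rik with Ptprd-Tyrp1 (668 and 607; -0.18). Of the 132 pairs, 86 had an interval above 0 and 2 one below 0. Pairs of other stretches were not counted, so these numbers do not show that desert pairs differ from others. With coverage in the expectation, 44 of the 132 pairs had a higher observed over expected value in GW4064. By chromosome, observed over expected was highest on chromosome 15 (3.11 in GW4064, 2.60 in vehicle) and lowest on chromosome 14 (1.52 and 1.33). It was lower in GW4064 than in vehicle on chromosome 7 (1.69 against 1.98) and on none of the other 16.

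Inside a desert, contacts were 1.34 times the expected from distance in GW4064 and 1.21 times in vehicle, above 1 for 69 and 67 of 70 deserts. The excess grew with distance, with 1.17 (GW4064) and 1.05 (vehicle) at 100 kb, 1.45 and 1.29 at 500 kb, 1.72 and 1.50 at 1 Mb and 2.01 and 1.85 at 2 Mb. Here too the direction depended on coverage: with it in the expectation the values were 0.804 and 0.848 over all distances, 0.706 and 0.743 at 100 kb, and only from about 1 Mb were both libraries above 1 (1.02 and 1.05 at 1 Mb, 1.20 and 1.30 at 2 Mb). The desert with the highest inside value was Slitrk5-Gpc5 by the mean of both libraries (1.53 in GW4064, 1.5 in vehicle), and the lowest were 1700015G11Rik-Luzp2 (0.895 and 1.06) and Klhl29-Apob (1.04 and 0.925). The heavy chain locus had the largest ratio between the libraries (1.26 in GW4064, 0.869 in vehicle); these 4 were picked by their values.

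**Figure D5:**
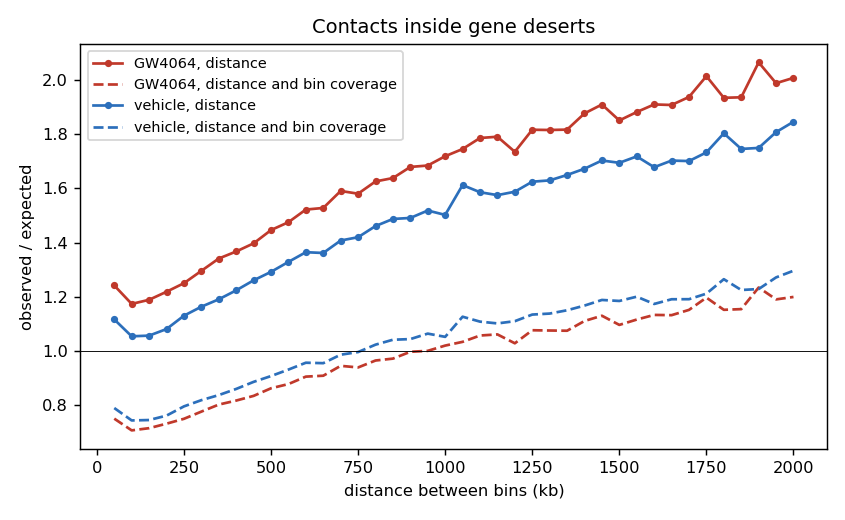
Observed over expected contacts inside the 70 deserts (vertical axis) against the distance between bins in kb (horizontal axis), GW4064 in red and vehicle in blue, expected from distance alone (solid lines with points) and from distance and bin coverage (dashed lines). The solid lines lie above 1 at every distance; the dashed lines start below 1, and GW4064 crosses it between 950 and 1000 kb and vehicle between 750 and 800 kb.

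Contacts across desert borders, between the 10 outermost desert bins and the 10 nearest bins outside, were 1.15 times (GW4064) and 1.05 times (vehicle) the expected. With coverage in the expectation they were 0.786 and 0.797 times. Borders varied widely, with 93 of 140 above 1 in GW4064 and 90 in vehicle. The lowest value was at the right border of Epha7-Map3k7, towards the gene of the kinase TAK1. There 159 contacts in GW4064 and 130 in vehicle were 0.327 and 0.382 times the expected. Next was the left border of Igfbp7-Adgrl3 (0.364 and 0.408). These values of single borders rest on distance alone. Mean coverage per bin in the 1 Mb right of Epha7-Map3k7 was 923 (GW4064) and 771 (vehicle), against desert medians of 1303 and 906. Left of Igfbp7-Adgrl3 it was 874 and 751, against 1197 and 861. The part of coverage in these border values was not tested. At the other end, the right border of Bcl11a-Fancl (2.23 and 1.82) and the left border of Lcorl-Slit2, away from the axon guidance gene Slit2 (2.15 and 1.98), lay above 1 in both libraries. Border deserts were picked by these values.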

How the data were processed

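HiC-Pro, Bowtie2 2.2.9 and mm10 are named in the submitters' processing notes; which HiC-Pro version, read filters and duplicate handling were used is not given in the sources used here. Both deposited matrices hold raw counts of contacts per pair of 50 kb bins, with no normalization, while their bin tables, also deposited, list each bin's index, which has no other unit. GRCm38.p6 genes of RefSeq bounded the deserts; promoter windows of chromosome 18 were not used. Depth limits precision as the intervals show. The members, lists and comparisons were chosen with earlier results of these data known.

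Each class was scaled to its total on chromosomes 1 to 19 and X. Ratios have exact conditional binomial 95% intervals and observed over expected values use measured bins (at least 200 contacts). With 1 library per group no test was run. Deserts named are the 5 longest, the 5 highest and 5 lowest for local contacts, the 3 highest and lowest for other classes, up to 4 beside genes of each list, and desert pairs with the 5 highest and lowest values and 3 highest and lowest ratios, with at least 100 contacts; examples are printed, and some deserts that meet these rules are not reported here. The alternatives tried were other scaling, lengths, ends, folds, expectations and bin filters. The calculations were tested on simulated data. Scripts ran in Python 3.11.15 with scipy 1.17.1, numpy 2.4.6, matplotlib 3.10.9 and pandas 2.3.3.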

Additional observations from a re-analysis of the deposited data

How the results depend on the processing

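With the threshold at 25% the deserts higher in GW4064 were 1 for coverage, 2 for same-bin contacts, 2 for local contacts, 1 for contacts over 2 Mb and 1 between chromosomes, and the deserts lower were 0 for coverage and 0 for contacts over 2 Mb. Scaled to all contacts, 15 were higher for contacts over 2 Mb, 1 was higher and 36 were lower between chromosomes, and the median log2 ratio between chromosomes turned to -0.14. The 27 deserts of at least 60 bins gave 7 higher for coverage, 24 same-bin, 21 local, 18 over 2 Mb and 16 between chromosomes, 0 lower for coverage, same-bin, local contacts and contacts over 2 Mb, and gene-poor shares of 99.6% (GW4064) and 99.8% (vehicle); with compartments at 500 kb the GW4064 share was 99.2%. Observed over expected values (GW4064, then vehicle) for those 27 deserts were 2.29 and 1.93 between deserts of one chromosome, 1.33 and 1.2 inside, 1.13 and 1.03 across borders and 1.73 and 1.70 between chromosomes. With bins of at least 1000 contacts they were 2.08 and 1.82, 1.31 and 1.18, 1.13 and 1.03, and 1.69 and 1.66. With an expectation over all autosomes they were 2.21 and 1.89 between deserts, 1.36 and 1.21 inside, and 1.17 in GW4064 across borders. Over 10 Mb apart, contacts between deserts were at 2.30 and 1.99. Bin coverage in the expectation gave 1.24 and 1.29 between deserts and turned the values inside to 0.804 and 0.848 and across borders to 0.786 and 0.797. Without the 2 deserts with antigen receptor segments, an alternative chosen after the data were seen, the values were 2.09 and 1.84, 1.35 and 1.21, and 1.17 and 1.07. Of the other values recomputed, 61 stayed within a limit and 2 medians moved by more. The limit was the counting interval for observed over expected values and gene-poor shares, and 1.5 times for counts. For the medians, 24 of the 61, it was the standard deviation over deserts, which is a spread between deserts and not a counting error. Runs with no gene of any type gave no value, since there were 0 of at least 40 bins. No paired analysis was possible because each group holds 1 library. Depth limits single deserts little, with 4143 to 18617 local contacts per desert and library, and desert pairs more, with as few as 116 contacts over both libraries. Intervals cover counting error only.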
